A study of Homo sapiens with 3 samples.

Results

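The 9 genes described here are the 3 peroxisome proliferator-activated receptors (PPARA, PPARD and PPARG) and 6 lipid-handling genes known as their targets (CD36, FABP3, CPT1A, UCP2, PLIN2 and ANGPTL4). They were chosen by gene symbol, and all 9 were found among the 16793 symbols of each library. RNA came from H446, an established line of human small cell lung cancer, a neuroendocrine lung tumour, grown in culture medium with fetal bovine serum. The cells were treated for 48 h with vehicle, with 5 µM or with 10 µM 3-bromoascochlorin (BAS), a brominated relative of the fungal metabolite ascochlorin. Each treatment had 1 library, 3 in all, so that no difference below has a replicate check, a spread between samples or a test, and what the libraries show may differ from what the treatments would show on repetition. Levels are FPKM, read numbers scaled to transcript length and to the reads of the library, which can be compared between genes. Where 3 levels follow each other, the first is from vehicle, the second from 5 µM and the third from 10 µM.

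PPARs are nuclear receptors that are switched on by fatty acids and their derivatives. Each binds DNA as a pair with a retinoid X receptor (RXR), at direct repeats of a short half-site spaced by a single base, the DR1 element. PPARα is best known for fatty acid burning in the liver, PPARγ for fat cell formation and lipid storage, and PPARδ is found in most tissues. Their shared targets take up, carry, burn or store fatty acids, and several of these targets also answer to other regulators.

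To show what sequence lies before these genes, the 250 bases upstream of each annotated start were taken from the RefSeq promoter table (GRCh38.p14), which held 21 windows for the 9 genes. They were searched on both strands for the half-sites AGGTCA and GGGTCA and for the DR1 element AGGTCANAGGTCA with at most 2 mismatches among its 12 specified bases. A half-site may lie within a DR1 match. Of the 21 windows, 1 held such a DR1-like match (4.76%), against 2.57% of all 35116 windows in the table, and 6 held a half-site (28.6%), against 22.4% of all. The DR1-like match lay in the third of the 6 CD36 windows, on the strand opposite to the gene, where it reads AAGTCAGAGGCCA and its far end lies 147 bases before the start. The half-sites lay in 4 of the 6 PPARG windows (a pair of which overlap and share a match), in 1 CD36 window and in the single PLIN2 window. In the windows of PPARA, PPARD, FABP3, CPT1A, UCP2 and ANGPTL4 none of these letters were found, which says nothing of sites elsewhere. The 3 windows printed here, without annotated exon bases, are in lower case with the matches in capitals: the CD36 window with the DR1-like match, the first PPARG window with its pair of AGGTCA half-sites, and the FABP3 window, which has no match. They lie at chr7:80638266-80638515 (plus strand, within the CD36 gene between its first and last annotated starts), chr3:12287118-12287367 (plus strand) and chr1:31373077-31373326 (minus strand), and are written 5′ to 3′ on the gene's strand.
CD36: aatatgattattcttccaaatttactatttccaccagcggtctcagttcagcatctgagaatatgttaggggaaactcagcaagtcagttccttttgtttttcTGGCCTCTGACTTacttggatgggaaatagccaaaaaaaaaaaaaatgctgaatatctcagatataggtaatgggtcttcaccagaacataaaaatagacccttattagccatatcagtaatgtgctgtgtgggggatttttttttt
PPARG: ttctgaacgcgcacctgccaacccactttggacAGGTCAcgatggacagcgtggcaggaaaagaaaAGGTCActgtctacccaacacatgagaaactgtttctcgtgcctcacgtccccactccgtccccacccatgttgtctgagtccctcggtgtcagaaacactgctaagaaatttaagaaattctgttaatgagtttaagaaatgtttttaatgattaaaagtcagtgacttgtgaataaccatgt
FABP3: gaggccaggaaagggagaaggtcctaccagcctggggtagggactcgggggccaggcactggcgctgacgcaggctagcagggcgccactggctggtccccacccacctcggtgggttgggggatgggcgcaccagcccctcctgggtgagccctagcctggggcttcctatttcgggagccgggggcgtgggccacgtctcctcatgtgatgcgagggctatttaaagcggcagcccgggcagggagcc
The files hold 1 value per gene, so which of the 6 CD36 or 6 PPARG starts was used cannot be read from them.

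Differences were taken on the log2(FPKM + 1) scale, which understates the differences of low genes, and a gene was called where this difference was at least 1, that is 2-fold. Calls were limited to 11512 genes whose FPKM averaged 1 or more across the libraries. Of the 9 genes, 8 passed this filter and ANGPTL4 did not. PPARG, CD36 and FABP3 were under 1 FPKM with vehicle and passed through the treated libraries, so that counts and medians over the genes that passed are description only. At 5 µM, 0 of the 8 were called, where 0.756% of all tested genes were. At 10 µM, CD36 alone was called, and it was higher. Among all tested genes 1.95% were called at 10 µM, 1.31% as higher. Between 5 and 10 µM, 0 of the 8 were called, against 0.0869% of all. The comparisons of the doses with vehicle share the vehicle library and are therefore not independent of each other.

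Of the receptors, PPARD and PPARA were near their vehicle levels, while PPARG was low and lay above vehicle. PPARD, the broadly expressed receptor, was at 12.74, 12.09 and 12.19 FPKM. It was the highest of the 3 receptors in each library and held 82.7%, 80.2% and 80.0% of their summed level. PPARA, the receptor of fatty acid burning, was at 1.76, 1.80 and 1.73 FPKM. Its 3 values lay within 0.07 FPKM of each other, and the sign of its small difference from vehicle at 5 µM turned with rescaling to a common total and with quantile normalization. PPARG, the receptor of fat storage, was at 0.91, 1.19 and 1.32 FPKM, the lowest of the 3 in each library. It was the only receptor above vehicle by more than 0.1 at either dose, with log2 differences of 0.20 and 0.28. As plain ratios to vehicle these were 1.31 and 1.45, beside 1.39 and 1.41 for the target PLIN2. The log2 differences placed PPARG at percentile 76.5 and 77.6 of all tested differences, short of the 2-fold limit at both doses. The order PPARD, PPARA, PPARG was the same in the 3 libraries, and the ranges of the receptors over the libraries did not overlap. Whether neighbours in this order differ beyond replicate error cannot be said with 1 library each.

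**Figure D1:**
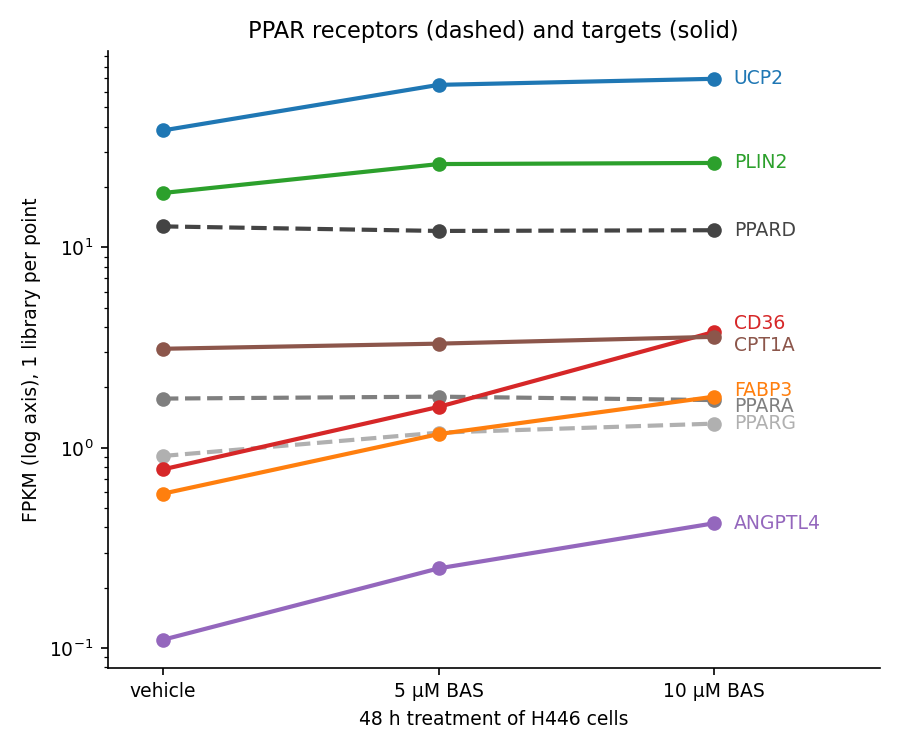
FPKM (log axis) of the 9 genes in the vehicle, 5 µM and 10 µM library, with 1 library per point, receptors dashed and targets solid. PPARD and PPARA run level, and UCP2 and PLIN2 step up at 5 µM and then flatten. CD36 climbs from 0.78 to 3.79 FPKM and passes PPARG, PPARA and CPT1A on the way.

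The targets lay above vehicle. All 6 were above vehicle at 5 µM and at 10 µM, where 53.2% and 56.5% of all tested genes were. As plain ratios of FPKM, 4 of the 6 were at least 1.5-fold above vehicle at each dose: CD36, FABP3, UCP2 and ANGPTL4, the last of them below the filter. The same ratio was reached by 5.13% of all tested genes at 5 µM and by 8.92% at 10 µM. The 5 targets that passed the filter had median log2 differences of 0.46 at 5 µM and 0.82 at 10 µM, beside 0.02 and 0.05 for all tested genes and 0.02 and −0.02 for the receptors. These genes were chosen with such values known, and CD36 and FABP3 passed the filter through their treated libraries. Nothing particular to the 6 genes therefore follows from these counts, shares or medians, which are description only.

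Fatty acid uptake and transport genes had the largest ratios among the targets that passed the filter. CD36, a scavenger receptor and transporter that brings long-chain fatty acids and oxidized lipoproteins into cells, was at 0.78, 1.60 and 3.79 FPKM. The 10 µM library was the highest and vehicle the lowest. The plain ratio to vehicle was 2.05 at 5 µM and 4.86 at 10 µM, and rounding of the deposited values to 2 decimals alone allows 4.82 to 4.90 for the latter. On the log2 scale the differences were 0.55 and 1.43, and at 10 µM 46 of the 11512 tested genes lay further up. Among the 2784 tested genes whose mean over all libraries was 1 to 5 FPKM, 2.01% were called higher at 10 µM. CD36 was under 1 FPKM with vehicle and has such a mean only through its treated libraries, so this share and its ranks are description only. CD36 also moved between the doses, by a log2 difference of 0.88, which 9 tested genes exceeded. Its related scavenger receptor gene SCARB1, which takes up cholesterol esters from HDL, was at 38.30, 37.94 and 40.43 FPKM, so that CD36 held 2.0%, 4.05% and 8.57% of the sum of both. FABP3, the heart-type protein that carries fatty acids through the cytosol, was at 0.59, 1.17 and 1.80 FPKM. Its values were again lowest with vehicle and highest at 10 µM. The ratios to vehicle were 1.98 and 3.05, and rounding allows 3.02 to 3.09 for the latter. With log2 differences of 0.45 and 0.82 FABP3 stayed under the limit, while with a pseudocount of 0.5 its 10 µM difference was 1.08 and with 0.1 it was 1.46, both past it. FABP3 remained a minor form: FABP5, the epidermal form, was at 17.62, 13.58 and 15.91 FPKM, and FABP3 held 1.69%, 3.89% and 6.0% of the summed level of the 6 FABP genes measured.

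Mitochondrial genes split. UCP2, an inner membrane carrier that moves metabolites and is also studied as an uncoupling protein, was at 38.39, 64.82 and 69.50 FPKM, the highest of the 9 genes in each library. The treated libraries were close to each other and well above vehicle. Its ratio to vehicle was 1.69 at 5 µM and 1.81 at 10 µM, with log2 differences of 0.74 and 0.84, and 170 and 250 tested genes lay further up. UCP2 gained 31.11 FPKM at 10 µM, where CD36 gained 3.01 FPKM. The related genes UCP1, of brown fat, and UCP3, of muscle, stayed at or under 0.34 FPKM, and UCP2 held at least 99.4% of the sum of the 3 in each library. CPT1A, the enzyme that hands long-chain fatty acids to carnitine and sets the rate at which they enter mitochondria, was at 3.12, 3.31 and 3.58 FPKM. Its 3 values lay close together, with ratios of 1.06 and 1.15 and log2 differences of 0.07 and 0.15 that placed it at percentile 57.3 and 64.1 of all tested genes. Most of the CPT1 level was CPT1C, the neuronal form, at 16.39, 21.17 and 20.32 FPKM, and CPT1A held 15.2%, 12.9% and 13.8% of the sum of the 3 CPT1 genes.

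Genes of storage and lipase control were PLIN2 and ANGPTL4. PLIN2, a coat protein of lipid droplets in most cells, was at 18.70, 26.08 and 26.42 FPKM. The treated libraries were nearly equal and both lay above vehicle, with ratios of 1.39 and 1.41 and log2 differences of 0.46 and 0.48. The small step from 5 to 10 µM changed sign with median-ratio scaling and with quantile normalization. PLIN3, another droplet coat protein, was at 19.60, 18.36 and 15.54 FPKM, so that PLIN3 was above PLIN2 with vehicle and below it in both treated libraries, and the share of PLIN2 in the summed level of the 5 perilipin genes was 47.4%, 56.1% and 60.1%. ANGPTL4, a secreted protein that inhibits lipoprotein lipase, was at 0.11, 0.25 and 0.42 FPKM, the lowest of the 9 genes in each library. Its ratios to vehicle were 2.27 and 3.82, and rounding alone allows 3.61 to 4.05 for the latter. Because ANGPTL4 was below the filter it was not compared with the limit, and with the filter removed its log2 difference of 0.36 at 10 µM stayed under it. That difference was 0.59 with a pseudocount of 0.5 and 1.31 with 0.1, the latter larger than the limit. LPL, the lipase it inhibits, was at 0.19, 0.34 and 0.90 FPKM and also below the filter.

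The targets differed in how much of the 10 µM difference was already there at 5 µM. PLIN2 had 96.2% and UCP2 88.2% of it on the log2 scale, while FABP3 had 55.0%, ANGPTL4 48.2%, CPT1A 42.6% and CD36 38.3%. On this scale the higher-expressed of these 6 genes were those near their 10 µM level at 5 µM, and the low ones those that went on to 10 µM. With a pseudocount of 0.1 the differences at 5 and 10 µM were 0.95 and 2.14 for CD36, 0.88 and 1.46 for FABP3 and 0.74 and 1.31 for ANGPTL4. The shares of low genes therefore depend on the pseudocount. Without replicates these shares have no error, and for CPT1A both differences were small. In the plot of both doses, PLIN2 and UCP2 lie near the line of equal differences and CD36 lies far above it. The tested genes nearest to CD36 there, by the Euclidean distance over its differences at 5 and 10 µM from 3 libraries, were FOS, RPL17-C18orf32 and HKDC1, at distances of 0.06, 0.09 and 0.22. FOS, an AP-1 subunit, was at 0.33, 0.92 and 2.44 FPKM, and HKDC1, a hexokinase family gene, at 0.16, 0.92 and 2.39 FPKM. Both were lower than CD36 with vehicle, and the log2(FPKM + 1) scale understates the differences of low genes, so their plain ratios are less alike than these distances. RPL17-C18orf32 (3.13, 5.29 and 9.57 FPKM) is a read-through of neighbouring genes whose reads may be split between them, so its values are uncertain.

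**Figure D2:**
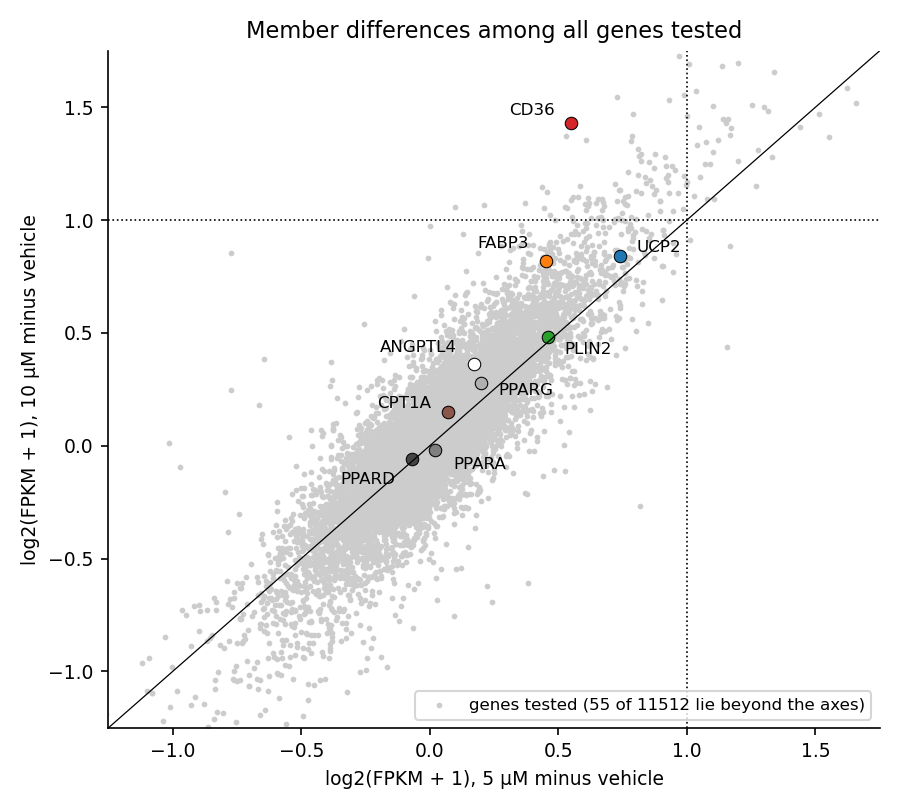
Difference in log2(FPKM + 1) from vehicle at 5 µM (x axis) and 10 µM (y axis) for the 9 genes and, in grey, all tested genes, of which 55 lie beyond the axes. Dotted lines mark the 2-fold limit and the solid line equal differences; CD36 alone of the 9 crosses the limit at 10 µM (1.43), and the open circle marks ANGPTL4, which was below the filter.

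The wider PPAR pathway was described with 8 lists of other genes, which share some members and leave out the 9. Joined, they held 107 genes in the files, of which 77 passed the filter. Of these, 0 were called at either dose and 0 between the doses, beside the 0.756%, 1.95% and 0.0869% of all tested genes given above. At 10 µM, 43 of the 77 exceeded vehicle and 34 did not, with a median difference of 0.07, and at 5 µM 38 were above and 39 below.

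Receptor partners and coregulators were mostly below vehicle. The DNA-binding partner RXRA was at 13.66, 12.28 and 10.71 FPKM, and RXRB was at 17.94, 16.78 and 18.46 FPKM. Of the 15 partners and coregulators that passed the filter, 12 were under vehicle at 5 µM, and 10 were at 10 µM, none of them called, with medians of −0.14 and −0.15. Among those with the lowest differences at 10 µM were PPARGC1B (PGC-1β), a coactivator of mitochondrial genes (3.25, 2.45 and 1.93 FPKM), and the coactivator NCOA3 (6.40, 4.80 and 4.27 FPKM). PPARGC1A (PGC-1α), the best known coactivator of fatty acid oxidation, was at no more than 0.04 FPKM in any library.

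Lipid droplet genes were mostly above vehicle. Of 11 that passed the filter, 9 were above vehicle at each dose, none of them called, with medians of 0.29 at 5 µM and 0.38 at 10 µM. With no filter, so that the low members of the list counted too, the medians were 0.18 and 0.21. CIDEC, which enlarges droplets, was at 1.23, 2.38 and 2.42 FPKM. DGAT2, an enzyme of the last step of triglyceride synthesis, was at 10.24, 14.32 and 15.69 FPKM. BSCL2 (seipin), which helps droplets form, was at 16.07, 22.28 and 24.11 FPKM, and HILPDA, an inhibitor of droplet lipolysis, at 14.72, 18.26 and 22.02 FPKM. In the vehicle library these 4 genes were at their lowest, as PLIN2 was.

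Uptake and oxidation genes lay on both sides of vehicle. At 10 µM, 8 of 14 other genes of uptake, binding and activation exceeded vehicle and 6 were under it, with a median of 0.07. At 5 µM, 4 were above and 10 below, with a median of −0.09. FABP7, the brain-type fatty acid carrier, was at 2.69, 0.98 and 1.09 FPKM, the largest difference of that list, and passed the limit as lower at both doses with a pseudocount of 0.1 or 0.5. FABP4, the fat cell form and a PPARγ target, was at 8.16, 6.95 and 5.09 FPKM, in the opposite order to FABP3. The fatty acid transport protein gene SLC27A3 was at 0.63, 1.19 and 1.45 FPKM, and SLC27A4 was at 14.94, 18.09 and 19.75 FPKM. Of 18 genes of the carnitine shuttle and mitochondrial oxidation, 11 were above and 7 below at 10 µM, with a median of 0.09, and 13 were above and 5 below at 5 µM, with a median of 0.14. HADH, a dehydrogenase of short chains, was at 41.16, 31.08 and 23.40 FPKM, and ETFDH, which passes the electrons on to the respiratory chain, at 9.89, 7.20 and 6.67 FPKM. ACADVL, the dehydrogenase of very long chains, was at 42.86, 58.37 and 62.24 FPKM, and CPT1B, the muscle form of CPT1A, at 1.08, 1.19 and 1.98 FPKM.

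Of the peroxisomal genes and the relatives of UCP2 and ANGPTL4 that passed the filter, none was called on the log2(FPKM + 1) scale. Of 12 peroxisomal genes 6 were above and 6 below at 10 µM, with a median of −0.01, and 4 were above and 8 below at 5 µM, with a median of −0.04. CROT, which moves shortened fatty acids onto carnitine for export from peroxisomes, was at 3.55, 3.38 and 4.45 FPKM. The mitochondrial carrier gene SLC25A14 was at 8.67, 10.08 and 11.60 FPKM, and SLC25A30, the other of 2 relatives of UCP2 that passed the filter, was at 4.74, 6.40 and 7.10 FPKM. Among 5 relatives of ANGPTL4 and partners of lipoprotein lipase the median was 0.10 at 5 µM and −0.13 at 10 µM, and the latter was 0.03 with no filter and 0.40 with the filter at 5 FPKM. ANGPTL2 was at 8.05, 10.00 and 12.46 FPKM. ANGPTL7 was at 1.45, 1.63 and 0.68 FPKM, and its plain ratio at 10 µM was 0.469 to vehicle and 0.417 to 5 µM, while its log2 differences of −0.54 and −0.65 stayed inside the limit. The list of other PPAR targets, which repeats genes of these lists, had 9 of 15 above vehicle at 10 µM, with a median of 0.07, and 8 of 15 at 5 µM, with a median of 0.06. The list also holds PDK4, a switch from glucose to fatty acid burning and a widely used PPAR readout, at 0.68, 0.73 and 0.83 FPKM. PDK4 was below the filter and so is not among the 15, and it is named here after its value was seen.

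**Figure D3:**
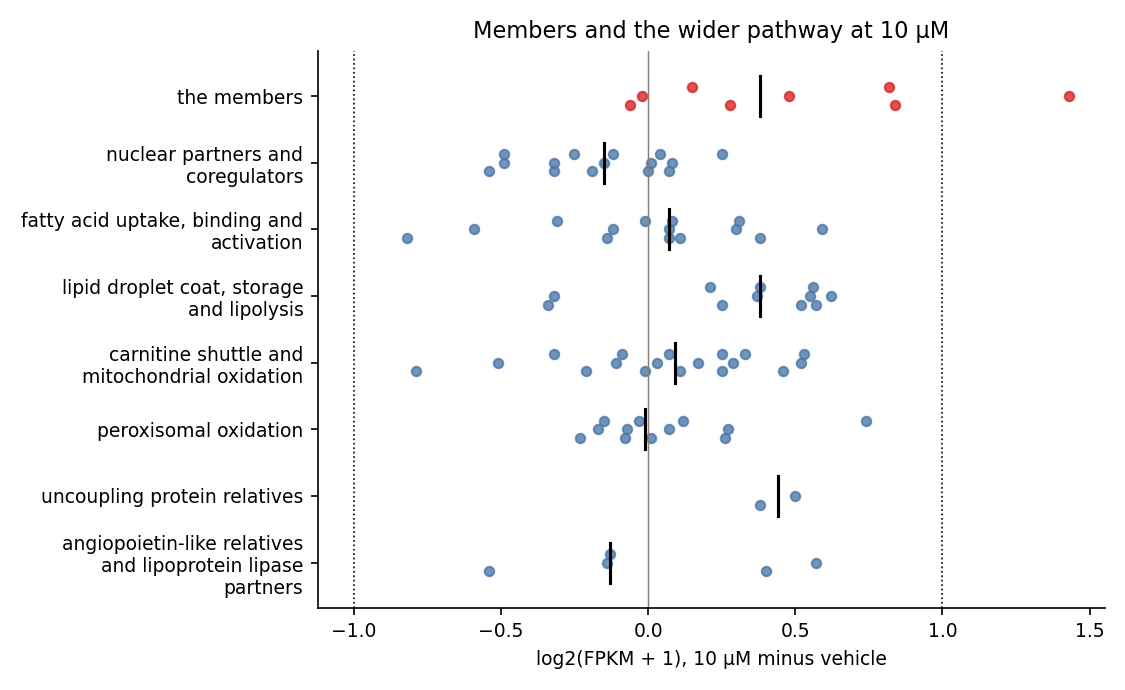
Difference in log2(FPKM + 1) at 10 µM from vehicle (x axis) for the 8 of the 9 genes that passed the filter (red) and for 7 lists of other pathway genes (blue), 1 point per gene, with the median of each row as a black bar and dotted lines at the 2-fold limit. CD36 is the only point past the limit, and the lipid droplet row sits to the right with a median of 0.38.

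The summed FPKM were 487923, 507342 and 492102, and the read depth is unknown. Of 13 small cell lung cancer and neuroendocrine markers in the files 11 passed the filter, among them NEUROD1 (104.96, 93.15 and 91.62 FPKM) and INSM1 (72.85, 81.79 and 95.14 FPKM). At each dose 9 of the 11 were above vehicle, with medians of 0.20 and 0.43, and 2 were called higher at 10 µM: CHGA (1.91, 4.0 and 6.41 FPKM) and UCHL1 (82.21, 131.19 and 176.51 FPKM). Of all tested genes, 53.2% were above vehicle at 5 µM and 56.5% at 10 µM, and 1.31% were called higher at 10 µM. CD36 is also a marker of macrophages, endothelium and fat cells, so markers of these were read beside it. Of 9 monocyte and macrophage markers in the files, 2 passed the filter, and the summed level was 4.90, 7.48 and 9.95 FPKM. Most of that was CD68, a lysosomal protein also made by other cells, at 2.85, 6.05 and 7.34 FPKM. PTPRC (CD45), found on all white blood cells, was at 1.03, 0.92 and 1.09 FPKM, and LYZ, below the filter, was at 0.57, 0.25 and 1.17 FPKM. CD14 was at 0.25, 0.10 and 0.07 FPKM, CSF1R at 0.01, 0.06 and 0.18 FPKM, ITGAM at no more than 0.05 FPKM and AIF1 at 0.10 FPKM with vehicle and at 0, as listed, in each treated library. Among fat cell markers (18.27, 19.35 and 17.39 FPKM in sum over 9 genes) most of the sum was FABP4, given above, and CFD (8.36, 9.08 and 8.50 FPKM). CIDEC and LPL, also on this list, were above vehicle at both doses. ADIPOQ and LEP were at no more than 0.15 FPKM, and PLIN1, at 0.04 and 0.07 FPKM in the treated libraries, had a listed vehicle value of 0. Endothelial markers summed to 59.52, 57.75 and 54.34 FPKM over 9 genes, nearly all of it CDH5 (57.56, 55.75 and 51.99 FPKM), with PECAM1 at no more than 0.16 FPKM. Muscle and heart markers, read beside FABP3, summed to 9.24, 15.23 and 17.34 FPKM over 7 genes, with TNNI3 at 3.50, 6.85 and 8.02 FPKM. Hepatocyte markers summed to at most 0.44 FPKM over 6 genes, and fibroblast markers to 800.04, 987.81 and 980.95 FPKM over 9 genes, led by COL3A1 and COL1A2. Most of the fibroblast sum came from these, COL1A1 and THY1. The markers DCN, LUM, PDGFRA and PDGFRB were at no more than 1.15 FPKM, and FAP was at 1.95, 1.53 and 1.51 FPKM. TNNI3 and CD68 were, like CHGA and UCHL1, called higher at 10 µM. TNNI3 lay at the limit with a log2 difference of 1.0, beside 1.12 for CD68, 1.35 for CHGA and 1.09 for UCHL1. The part of these 4 genes and of the cells they mark in the differences of CD36 and FABP3 was not tested. In bulk RNA, more cells that express a gene and more RNA per cell cannot be told apart.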

How the data were processed

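RNA sequencing values came from 3 libraries of H446 cells, 1 per treatment. Per the file headers the deposited values are FPKM, given to 2 decimals. Per the labels, reads were single-end of 50 bases on an MGISEQ2000. Per the submitters' processing notes, Trim Galore, BWA, Bowtie2, Cufflinks, Cuffdiff and build hg19 were used by the authors. Not given in the sources used here are versions, roles, annotation, strand and any scaling across libraries. Per the file headers, the treated columns are coded ASB85 and ASB810; doses of BAS were taken from the labels, and whether code and dose match could not be checked. Low values showed no whole-read steps, so depth, counting error and intervals are unknown.

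Each file had 16795 rows for 16793 symbols, and rows of a repeated symbol were summed. Differences were computed on log2(FPKM + 1), with a pseudocount of 1, among 11512 genes averaging 1 FPKM or more, and called at 2-fold. No test is possible. The alternatives were median-ratio scaling, a common total, quantile normalization, pseudocounts of 0.1 and 0.5, fold limits of 1.5 and 4, a filter at 5 FPKM and none. The genes and lists were chosen with earlier results of these data known. Named genes are the 9, up to 4 per pathway list by the size of their 10 µM difference, the 3 nearest to a called gene, named relatives and markers; some genes that the rule names are not reported here. The calling step was tested on simulated data with an assumed spread, in which known shifts were placed only in genes averaging 5 FPKM or more. That test therefore does not cover CD36, FABP3 and the other genes below this level.

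Promoters are RefSeq's on GRCh38.p14, read for their letters only because the files use hg19. In GENCODE 29, 0% to 3.54% of the 50-base stretches of each gene's coding transcripts occur in another gene, the highest for CPT1A, and at most 0.0403% of exonic bases lie under another gene. Python 3.11.15, numpy 2.4.6, pandas 2.3.3 and matplotlib 3.10.9 were used.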

Additional observations from a re-analysis of the deposited data

How the results depend on the processing

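No paired analysis was possible because each treatment has 1 library and no replicate numbers pair them. Leaving out a replicate was likewise not possible. At 10 µM against vehicle the count of called genes among the 9 was 1 (CD36) as reported. It was 2 with a pseudocount of 0.1 and 2 with 0.5 (CD36 and FABP3), 3 with a fold limit of 1.5 (CD36, FABP3 and UCP2), 0 with a fold limit of 4, and 0 with a filter at 5 FPKM, which removes CD36 from the tested genes. At 5 µM it was 0, and 1 (UCP2) with a fold limit of 1.5. Between the doses it was 0, and 1 (CD36) with a pseudocount of 0.1, of 0.5 and with a fold limit of 1.5. Of all tested genes, the share called at 5 µM, at 10 µM and between the doses was 1.7%, 3.65% and 0.356% with a pseudocount of 0.1, 1.1%, 2.69% and 0.235% with 0.5, and 4.62%, 9.51% and 0.851% with a fold limit of 1.5. In the same order it was 0.0434%, 0.191% and 0.0% with a fold limit of 4, and 0.676%, 1.57% and 0.0458% with a filter at 5 FPKM. Without a filter and with the 3 rescalings the 3 counts among the 9 genes were as reported. In the joined pathway lists the count of 0 at 5 µM became 1 with a pseudocount of 0.1, 1 with 0.5 (FABP7 in each) and 2 with a fold limit of 1.5. At 10 µM it became 2, 1 and 6 of 77 in that order, and between the doses 1 (ANGPTL7) with a pseudocount of 0.1 and 1 with a fold limit of 1.5, to be read against the same shares. Of 228 recomputed differences of the 9 genes, 6 changed sign, all in PPARA at 5 µM and in PPARD and PLIN2 between the doses, where the reported difference was at most 0.02. Only the pseudocounts and the rescalings can change these differences, and only the rescalings can change their sign. Filters and fold limits change only the calls, so most of the 228 could not have changed sign. The depth is unknown, so counting error cannot be given for the low genes PPARG, CD36, FABP3 and ANGPTL4.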
